A study of Mus musculus with 6 samples.

Results

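Branched-chain amino acid catabolism was followed in inguinal subcutaneous white fat through 10 genes of the pathway, listed by name: Bcat2, Bckdha, Bckdhb, Dbt, Ivd, Mccc1, Mccc2, Acadsb, Hibch and Hibadh. Each gene had exactly 1 probe set with a single symbol in the array annotation, so the 10 genes make up 10 of the 30702 named genes and of the 65956 probe sets on each array. The tissue came from male C57BL/6 mice aged 2 months. The 3 mice of the KO group were TFG f/f; Adipoq-ERT2Cre, which carry floxed Tfg alleles and a tamoxifen-dependent Cre driven by the adiponectin promoter, and the 3 mice of the WT group were TFG f/f without Cre. All 6 mice received tamoxifen for 5 days, and RNA was taken 2 weeks later. Cre acts in adiponectin-expressing cells, so the other cells of the depot keep their Tfg, and the WT group lacks Cre as well as the deletion. Every mouse gave 1 array with deposited log2 signals, and values are means of n = 3 arrays per group.

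Leucine, isoleucine and valine share the first steps of their breakdown in the mitochondrion. A transaminase removes the amino group, and the branched-chain ketoacid dehydrogenase complex then removes carbon dioxide and attaches coenzyme A in a step that commits the carbon to oxidation. The acyl-CoA products are oxidised by separate enzymes for each amino acid, ending in acetyl-CoA, acetoacetate or propionyl-CoA. Adipocytes are known to use this carbon for lipid synthesis, and the dehydrogenase is restrained by a dedicated kinase and released by a phosphatase.

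Of the 10 genes, 9 rose on the KO-labelled arrays and 0 fell (limma, Benjamini-Hochberg adjusted p under 0.05). The rises ran from 1.52-fold in Bcat2 to 5.10-fold in Hibadh, and the median change of the 10 genes was 1.19 on the log2 scale. Of all probe sets, 5.32% were called higher and 15.6% lower, and of the 19232 protein-coding genes 10.7% were called higher and 10.2% lower. At an unadjusted p under 0.05, 10 of the 10 genes were higher, beside 6012 of the 65956 probe sets. Over all probe sets the median change was -0.37, and over protein-coding genes -0.18, so a gene with a change of 0 stood above the median probe set. All 3 KO-labelled values lay above all 3 WT-labelled values in 10 of the 10 genes, against 11.1% of all probe sets and 23.3% of protein-coding genes. After each array was centred on the mean of 12 housekeeping genes, 2 genes, Bckdha and Hibadh, were still called higher, and the differences of Bcat2 and Mccc1 turned negative. The housekeeping mean itself was 0.80 higher on the KO-labelled arrays. Of these 12 genes 5 were called higher and 0 lower, with changes from -0.28 to 2.17, so their mean is not a stable baseline. When WT 1, WT 2, WT 3 or KO 3 was left out, 0 of the 10 genes were called, although every difference kept its sign.

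The genotype labels could be checked only in part, since the exons covered by the probe set of Tfg are not stated in the sources used here. Tfg read 7.97, 7.94 and 7.91 on the WT-labelled arrays and 7.99, 8.21 and 8.03 on the KO-labelled arrays. Its difference of 0.14 ± 0.11 (SE) did not pass (limma adjusted p = 0.345; exact 2-sided permutation p = 0.1, the smallest that 3 against 3 arrays allow), so the targeted gene was not lower on arrays labelled KO, and the directions below are those of the labels. Centred on the housekeeping genes, Tfg stood at -0.66. Array medians lay between 6.96 and 7.02 in the WT group and between 6.47 and 6.76 in the KO group. KO 2 stood apart from the other KO-labelled arrays, with correlations across probe sets of 0.96 and 0.965 against 0.986 between KO 1 and KO 3.

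**Figure D1:**
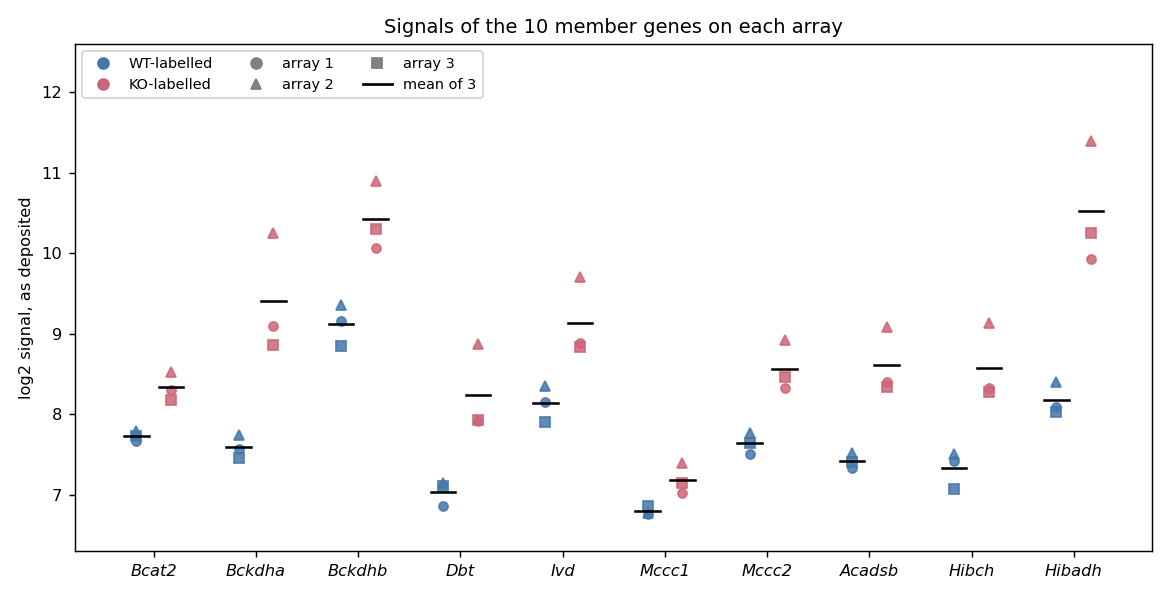
Deposited log2 signal (vertical axis) of the 10 genes on each of the 6 arrays, WT-labelled in blue and KO-labelled in red, with the marker shape giving the replicate number and the black line the mean of 3. In every gene the 3 KO-labelled points lie above the 3 WT-labelled points, and the triangle of KO 2 is the highest; the smallest gap between the groups is that of Mccc1, at 0.16.

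Promoter sequences are shown for the gene with the largest change (Hibadh), for both subunits of the dehydrogenase's first enzyme (Bckdha and Bckdhb) and for both subunits of methylcrotonyl-CoA carboxylase (Mccc1, with the smallest change, and Mccc2). They are the 250 bases before the RefSeq start in GRCm38.p6, written 5′ to 3′ on the strand of the gene, at chr6:52640301-52640550 (minus strand), chr7:25658762-25659011 (minus), chr9:83924887-83925136 (plus), chr3:36000679-36000928 (minus) and chr13:100015640-100015889 (minus). Capitals mark matches, on either strand, to the CCAAT box (CCAAT), the GC box (GGGCGG) and the E-box (CACGTG).
Hibadh: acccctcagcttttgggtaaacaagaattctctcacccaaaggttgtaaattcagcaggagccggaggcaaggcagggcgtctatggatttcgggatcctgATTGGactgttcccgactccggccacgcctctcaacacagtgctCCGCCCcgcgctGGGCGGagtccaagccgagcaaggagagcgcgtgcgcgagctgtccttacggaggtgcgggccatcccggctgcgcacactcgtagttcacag
Bckdha: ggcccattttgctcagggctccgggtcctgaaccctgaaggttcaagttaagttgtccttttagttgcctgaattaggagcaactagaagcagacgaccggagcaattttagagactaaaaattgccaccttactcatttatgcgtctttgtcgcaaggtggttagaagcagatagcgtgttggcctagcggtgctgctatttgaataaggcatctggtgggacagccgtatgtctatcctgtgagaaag
Bckdhb: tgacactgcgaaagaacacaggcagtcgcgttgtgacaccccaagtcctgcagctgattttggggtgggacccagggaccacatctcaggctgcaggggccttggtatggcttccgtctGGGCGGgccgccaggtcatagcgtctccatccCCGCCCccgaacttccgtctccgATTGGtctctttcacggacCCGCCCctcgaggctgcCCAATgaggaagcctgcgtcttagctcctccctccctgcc
Mccc1: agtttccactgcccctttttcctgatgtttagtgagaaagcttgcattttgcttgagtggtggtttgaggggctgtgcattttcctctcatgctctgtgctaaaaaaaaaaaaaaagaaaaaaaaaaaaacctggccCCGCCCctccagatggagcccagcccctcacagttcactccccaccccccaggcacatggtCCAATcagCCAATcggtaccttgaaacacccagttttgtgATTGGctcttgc
Mccc2: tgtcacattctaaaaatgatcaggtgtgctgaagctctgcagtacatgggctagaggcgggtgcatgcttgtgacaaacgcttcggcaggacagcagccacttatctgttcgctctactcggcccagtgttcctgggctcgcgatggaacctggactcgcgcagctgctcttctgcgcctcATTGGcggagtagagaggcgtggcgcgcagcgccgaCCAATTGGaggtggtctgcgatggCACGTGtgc

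RefSeq promoters were found for 9 of the 10 genes, with 11 starts in all, and not for Dbt. CCAAT was present before 5 of the 9 genes (Bckdhb, Hibadh, Ivd, Mccc1 and Mccc2), at 5 of the 11 starts. It stood in 33.8% of all 32851 promoters of the same length. Mccc1 and Mccc2 had 3 CCAAT matches each, 2 of those of Mccc2 overlapping each other, and Ivd had 4. GGGCGG was present before 5 of the 9 genes (Acadsb, Bckdhb, Hibadh, Hibch and Mccc1), at 5 of the 11 starts, and in 32.7% of all promoters. CACGTG was found before Mccc2 alone among the 9 genes, at 1 of the 11 starts, and in 6.02% of all promoters. The 250 bases before Bckdha, the gene with the second largest change, held none of these matches, and those before the first listed start of Bckdhb, shown above, held 2 CCAAT and 3 GGGCGG. The window before the other listed start of Bckdhb held 0 of both. The response element of PPAR and RXR (the motif AGGTCA repeated in the same direction, 1 base apart), the ERR site TCAAGGTCA and the cAMP response element TGACGTCA had no match in these windows of the 9 genes, and stood in 0.0335%, 0.387% and 1.55% of all promoters. These matches are letters in a window and were not set against binding data.

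Bcat2 encodes the mitochondrial branched-chain aminotransferase, which carries out the first step in most tissues. It read 7.66, 7.79 and 7.73 on the WT-labelled arrays and 8.30, 8.52 and 8.18 on the KO-labelled arrays. The groups did not overlap, and the rise of 0.61 ± 0.13 (SE), or 1.52-fold, was the smallest among the called genes (limma adjusted p = 0.0381), while relative to the housekeeping genes the difference was -0.19. With the replicate number as a block the gene was no longer called (adjusted p = 0.0501). Bcat1, the cytosolic isoenzyme, read 7.22, 7.35 and 7.36 on WT-labelled and 7.05, 7.0 and 7.06 on KO-labelled arrays, and its difference of -0.27 ± 0.10 did not pass (adjusted p = 0.0908). After quantile normalization it was 0.01. The within-array difference of Bcat2 minus Bcat1 was 0.42 ± 0.04 (SD) on WT-labelled and 1.30 ± 0.20 on KO-labelled arrays, without overlap (exact permutation p = 0.1, the smallest possible, and 0.12 adjusted over 6 pairs of genes).

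The branched-chain ketoacid dehydrogenase complex has a first enzyme made of alpha and beta subunits, encoded by Bckdha and Bckdhb, and a lipoic acid-bearing acyltransferase core encoded by Dbt. Bckdha read 7.57, 7.74 and 7.46 on WT-labelled and 9.10, 10.25 and 8.86 on KO-labelled arrays. It rose by 1.81 ± 0.37 (SE), or 3.51-fold (limma adjusted p = 0.0367), the second largest rise of the 10 genes, with KO 2 far above KO 1 and KO 3. Bckdhb read 9.16, 9.36 and 8.85 on WT-labelled and 10.07, 10.90 and 10.30 on KO-labelled arrays. The rise of 1.30 ± 0.25, or 2.46-fold, left a gap of 0.71 between the highest WT-labelled and the lowest KO-labelled value (adjusted p = 0.0361). Dbt read 6.86, 7.14 and 7.11 on WT-labelled and 7.92, 8.87 and 7.93 on KO-labelled arrays. It rose by 1.20 ± 0.28, or 2.30-fold (adjusted p = 0.0409), again with KO 2 standing above the other 2 arrays. Dld, which encodes the dehydrogenase subunit that this complex shares with the pyruvate and oxoglutarate complexes, rose by 1.44 ± 0.35 (adjusted p = 0.0421).

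The subunit changes of the complex were also set against each other within arrays. Bckdha minus Bckdhb shifted by 0.51 between the groups, and the groups overlapped, with KO 3 at -1.44 and WT 3 at -1.39 (exact permutation p = 0.2, adjusted p = 0.2). Dbt minus Bckdha shifted by -0.61, from -0.55 ± 0.18 (SD) to -1.16 ± 0.23, without overlap (exact permutation p = 0.1, adjusted p = 0.12), so the change in Bckdha was the larger on these arrays, and the test could not have passed at this size.

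The kinase and the phosphatase of the complex did not pass. Both were dim, with WT means of 6.02 for Bckdk and 7.01 for Ppm1k beside WT array medians of 6.96 to 7.02. The sizes of their changes are therefore uncertain. Bckdk, the kinase that inactivates the first enzyme, read 6.00, 6.09 and 5.96 on WT-labelled and 6.22, 6.92 and 6.37 on KO-labelled arrays, a difference of 0.49 ± 0.20 (SE, limma adjusted p = 0.105). Ppm1k, the phosphatase that reactivates it, read 6.94, 7.09 and 7.0 against 6.93, 7.11 and 6.80, and the groups overlapped. Its difference of -0.06 had a 95% interval of -0.37 to 0.24 (adjusted p = 0.693), and it was 0.24 after quantile normalization. Bckdha minus Bckdk shifted by 1.33 and Bckdha minus Ppm1k by 1.88 within arrays, both without overlap between the groups (exact permutation p = 0.1 and adjusted p = 0.12 for each).

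In the leucine branch, Ivd encodes isovaleryl-CoA dehydrogenase, and Mccc1 and Mccc2 encode the biotin-bearing and the carboxyltransferase subunit of methylcrotonyl-CoA carboxylase. Ivd read 8.15, 8.35 and 7.90 on WT-labelled and 8.88, 9.70 and 8.83 on KO-labelled arrays, a rise of 1.0 ± 0.27 (SE), or 2.00-fold. Its adjusted p of 0.0485 lay closest to the threshold among the called genes, and the call was lost after quantile normalization (adjusted p = 0.0584) and without KO 1 (adjusted p = 0.0537). Mccc2 read 7.51, 7.76 and 7.64 on WT-labelled and 8.32, 8.92 and 8.46 on KO-labelled arrays. It rose by 0.93 ± 0.19, or 1.91-fold (adjusted p = 0.0364). Mccc1 read 6.76, 6.77 and 6.86 on WT-labelled and 7.02, 7.39 and 7.14 on KO-labelled arrays. Its difference of 0.39 ± 0.13, with a 95% interval of 0.06 to 0.71, was the smallest of the 10 and did not pass (adjusted p = 0.074), and relative to the housekeeping genes it was -0.41. Mccc1 minus Mccc2 went from -0.84 ± 0.13 (SD) to -1.38 ± 0.13, a shift of -0.54 without overlap (exact permutation p = 0.1, adjusted p = 0.12).

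Later leucine enzymes were mixed. Auh, the hydratase that follows the carboxylase, was 0.41 ± 0.17 higher without passing (adjusted p = 0.102). Oxct1, which activates acetoacetate, rose by 0.91 ± 0.15, and Acat1, the mitochondrial thiolase shared by the leucine and isoleucine branches, by 1.61 ± 0.28 (limma adjusted p = 0.0354 for each).

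In the isoleucine branch, Acadsb encodes the short/branched-chain acyl-CoA dehydrogenase. It read 7.33, 7.52 and 7.41 on WT-labelled and 8.40, 9.08 and 8.34 on KO-labelled arrays. The rise of 1.19 ± 0.22 (SE), or 2.28-fold, exceeded the spread within both groups (limma adjusted p = 0.0357). The enzymes that follow it also rose: the hydratase gene Echs1 by 1.37 ± 0.35 (adjusted p = 0.0446) and Hsd17b10, the dehydrogenase of methyl-branched hydroxyacyl-CoA, by 1.81 ± 0.35 (adjusted p = 0.036).

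The valine branch held the largest rise of the 10 genes, that of Hibadh. Hibch, the hydrolase that frees hydroxyisobutyrate from coenzyme A, read 7.42, 7.51 and 7.07 on WT-labelled and 8.32, 9.13 and 8.27 on KO-labelled arrays. It rose by 1.24 ± 0.27 (SE), or 2.36-fold (limma adjusted p = 0.0383), with WT 3 the lowest of its group. Hibadh, the dehydrogenase that oxidises the freed hydroxyisobutyrate, read 8.09, 8.40 and 8.03 on WT-labelled and 9.93, 11.39 and 10.25 on KO-labelled arrays. The rise of 2.35 ± 0.38, or 5.10-fold, had the smallest adjusted p of the 10 genes (0.0354), and the lowest KO-labelled value stood 1.53 above the highest WT-labelled value. Aldh6a1, which turns the product of Hibadh into propionyl-CoA, read 8.64, 9.33 and 8.45 against 10.88, 12.83 and 11.01 and rose by 2.77 ± 0.56, or 6.81-fold (adjusted p = 0.0368). Acad8, the isobutyryl-CoA dehydrogenase at the head of this branch, read 7.96, 7.84 and 7.94 against 8.13, 8.18 and 8.09, and its difference of 0.22 ± 0.10 did not pass (adjusted p = 0.138).

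**Figure D2:**
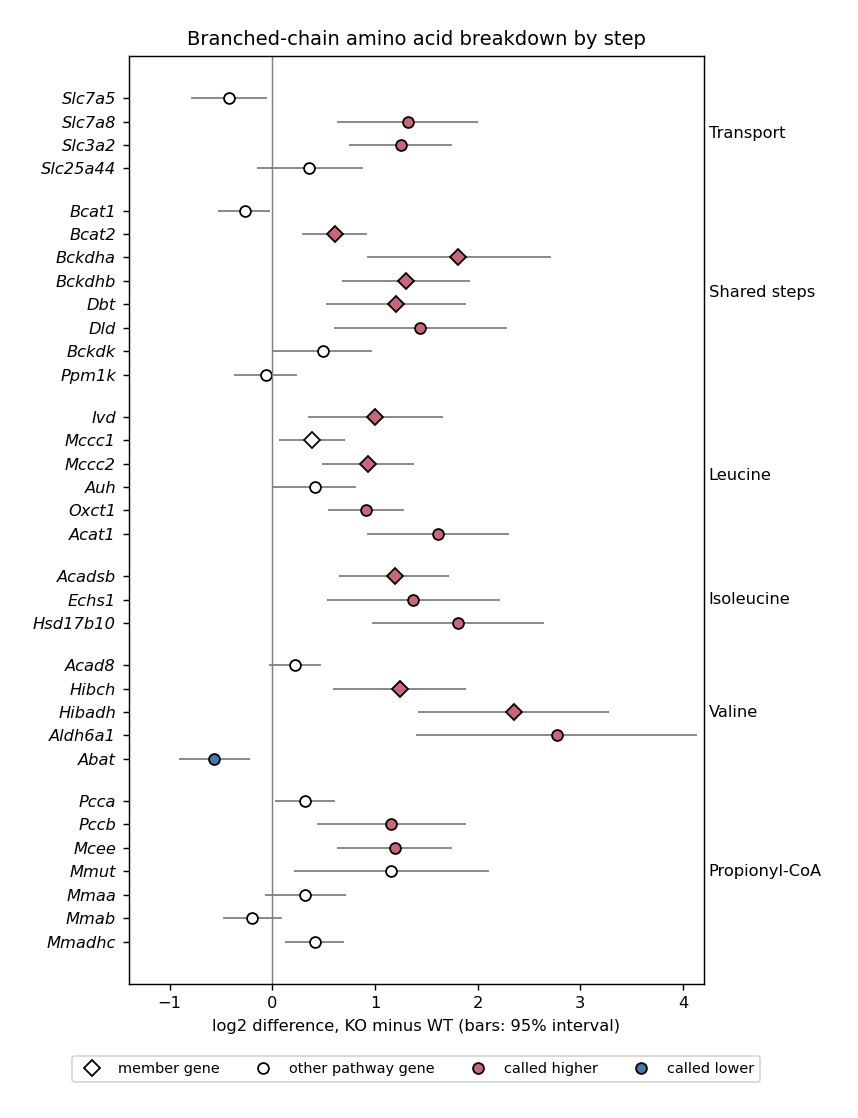
Log2 difference, KO minus WT (horizontal axis), of the 10 genes (diamonds) and a selection of other genes of the pathway (circles) in the order of the steps, with 95% intervals; filled symbols passed limma's test. Hibadh at 2.35 and Aldh6a1 at 2.77 lie farthest to the right, while Bcat1, Ppm1k, Mmab, Slc7a5 and Abat lie left of 0; the cofactor and electron transfer genes, Hsd17b4, Slc43a1, Slc43a2 and Slc6a15 are not drawn.

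Over the other genes of the pathway, 11 of 12 genes of further steps were measured, of which 6 rose, 1 fell and 4 did not pass, with a median change of 0.91 (0.11 against the housekeeping mean). The 6 were Dld, Echs1, Hsd17b10, Aldh6a1, Acat1 and Oxct1. Abat, a transaminase of the GABA and valine routes, fell by 0.57 on the log2 scale (limma adjusted p = 0.0441), and its call was lost after quantile normalization, where the difference was -0.24. Of 7 genes that take propionyl-CoA to succinyl-CoA or serve its cobalamin cofactor, 2 rose and 0 fell (5 and 0 at an unadjusted p under 0.05), with a median change of 0.41 that was -0.39 relative to the housekeeping genes. Pccb, the beta subunit of propionyl-CoA carboxylase, rose by 1.16 ± 0.30 (SE, adjusted p = 0.046) and the epimerase gene Mcee by 1.19 ± 0.23 (adjusted p = 0.036). Pcca, the biotin-bearing alpha subunit, differed by 0.32 ± 0.12 without passing (adjusted p = 0.0843). The mutase gene Mmut read 7.57, 7.87 and 7.53 against 8.52, 9.71 and 8.22, a difference of 1.16 ± 0.39 that did not pass either (adjusted p = 0.0704).

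Genes that supply cofactors, accept electrons or transport amino acids were also measured. Of 8 measured cofactor and electron transfer genes 2 rose and 0 fell (3 and 1 at an unadjusted p under 0.05), with a median change of 0.34 that was -0.46 relative to the housekeeping genes. They were Etfa, a subunit of the flavoprotein that takes electrons from the acyl-CoA dehydrogenases, at 2.22 ± 0.51 (SE, limma adjusted p = 0.0401), and Etfdh, which passes them to ubiquinone, at 0.78 ± 0.19 (adjusted p = 0.0428), although Etfdh stood at -0.02 relative to the housekeeping genes. Without KO 2, 0 of these cofactor and electron transfer genes were called. Hlcs, which attaches biotin to the carboxylases, differed by -0.12 ± 0.11 without passing (adjusted p = 0.384). Of 7 amino acid transport genes 2 rose and 0 fell (2 and 1 at an unadjusted p under 0.05), with a median change of 0.16 that was -0.64 relative to the housekeeping genes. Slc3a2, the heavy chain shared by several transporters, rose by 1.25 ± 0.21 and its light chain partner Slc7a8 by 1.32 ± 0.28 (adjusted p = 0.0354 and 0.038). The other light chain gene Slc7a5 differed by -0.42 ± 0.15 without passing (adjusted p = 0.0819), and Slc25a44, the mitochondrial carrier of branched-chain amino acids, by 0.36 ± 0.21 (adjusted p = 0.204). Of 7 measured regulators 1 rose and 0 fell (5 and 0 at an unadjusted p under 0.05), with a median change of 0.49 that was -0.31 relative to the housekeeping genes. Pparg rose by 3.66 ± 0.42 (adjusted p = 0.0354), and Klf15, a regulator of amino acid breakdown, differed by 0.49 ± 0.14 (adjusted p = 0.0527). Mlxipl and Ppara differed by 0.97 ± 0.29 and 0.78 ± 0.24 without passing (adjusted p = 0.0558 and 0.0582).

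Related enzymes gave a scale for these changes. Of 14 citric acid cycle genes 11 rose and 0 fell, with a median change of 1.49 (0.69 against the housekeeping mean). Of 13 genes of the pyruvate, oxoglutarate and oxoadipate dehydrogenase complexes and the pyruvate complex's kinases and phosphatases 7 rose and 0 fell, with a median of 0.65 that was -0.15 relative to the housekeeping genes. Of their first-enzyme genes, Pdhb, Ogdh and Pdha1 rose by 3.30 ± 0.48, 2.62 ± 0.40 and 2.14 ± 0.40 (SE, limma adjusted p = 0.0354, 0.0354 and 0.0358), against 1.81 and 1.30 for Bckdha and Bckdhb. Dhtkd1, the first enzyme of the oxoadipate complex, differed by 0.11 ± 0.11 without passing (adjusted p = 0.447). Pdk4, a kinase that inactivates the pyruvate complex, had the largest rise of this list, at 5.93 ± 0.90 or 61.1-fold (adjusted p = 0.0354). Of 9 acyl-CoA dehydrogenases other than Ivd, Acadsb and Acad8, 4 rose and 0 fell, with a median of 0.15 that was -0.65 relative to the housekeeping genes. At an unadjusted p under 0.05, 0 genes of these 3 lists were lower. Acadl, of long-chain fatty acids, rose by 3.70 ± 0.51 and Acadm, of medium-chain fatty acids, by 2.81 ± 0.67 (adjusted p = 0.0354 and 0.0417). Acad11 and Acadvl rose by 2.03 ± 0.34 and 1.53 ± 0.36 (adjusted p = 0.0354 and 0.0407), while Gcdh, of the lysine and tryptophan route, differed by -0.14 ± 0.11 (adjusted p = 0.327). Among other genes of biotin-bearing carboxylases, Acaca, Acacb and Pcx rose by 3.73 ± 0.69, 3.23 ± 0.68 and 2.66 ± 0.52 (adjusted p = 0.0356, 0.0378 and 0.0361), against 0.39 for Mccc1 and 0.32 for Pcca, neither of which passed. Whether these lists differ from the 10 genes was not tested.

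**Figure D3:**
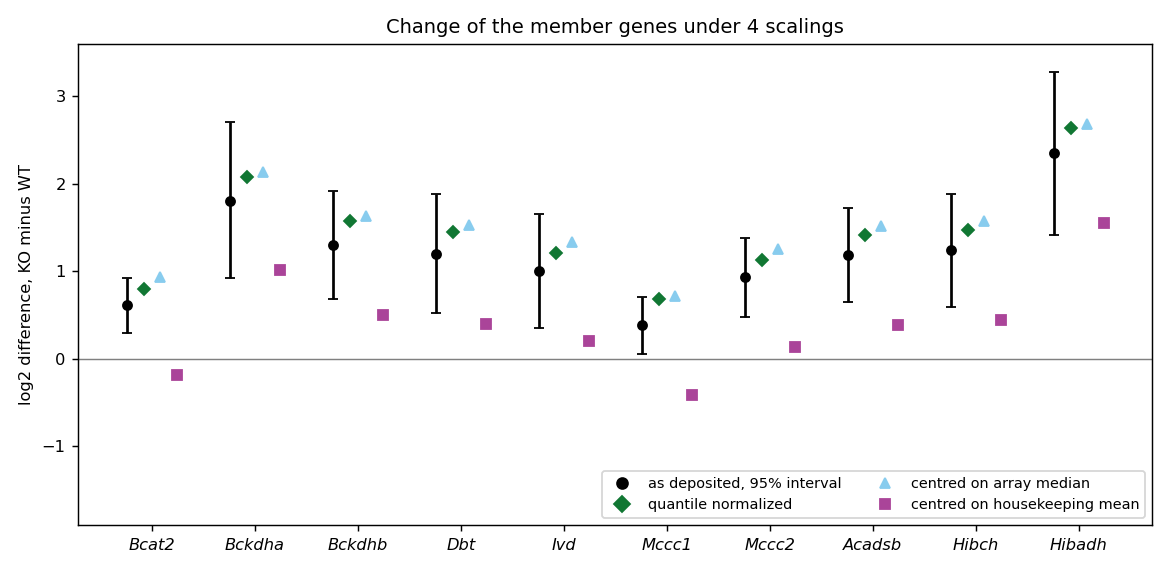
Log2 difference, KO minus WT (vertical axis), of the 10 genes on the deposited values with 95% intervals (black) and as point values after quantile normalization, after centring on the array median and after centring on the housekeeping mean. The first 3 scalings keep all 10 differences above 0; centred on the housekeeping mean, Bcat2 (-0.19) and Mccc1 (-0.41) lie below 0.

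The order of the arrays was similar across the 10 genes. KO 2 gave the highest KO-labelled value in 10 of 10 genes, as it did in 90.2% of all probe sets called higher and in 33.2% of protein-coding genes. WT 2 gave the highest WT-labelled value in 9 of 10, against 50.7% of all probe sets called higher and 26.9% of protein-coding genes, with Mccc1 as the exception. The mean of the 10 genes was 7.65, 7.83 and 7.61 on WT 1, WT 2 and WT 3, and 8.63, 9.41 and 8.66 on KO 1, KO 2 and KO 3. The KO-labelled arrays were thus further apart than the WT-labelled ones. Without KO 2 the differences of the 10 genes were smaller, from 0.28 in Mccc1 to 1.92 in Hibadh, and 9 were called. Hibadh stood at 1.76, 3.22 and 2.08 above the WT mean on KO 1, KO 2 and KO 3, and Bckdha at 1.51, 2.66 and 1.27.

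Markers of other cell types moved with the groups as well. Of 15 measured adipocyte markers 10 rose and 0 fell (5 did not pass), with list means between 8.65 and 10.27 in the WT group and between 11.84 and 13.14 in the KO group. Adipoq, the adiponectin gene, read 9.80, 10.97 and 8.76 on the WT-labelled arrays, so the tissue's defining marker was present. In a tissue sample a change in the number of cells of a type and a change in RNA per cell cannot be told apart. Of 9 endothelial markers 8 rose and 0 fell, with list means of 7.09 to 7.30 and 8.54 to 9.18. Of 9 lymphocyte markers 0 rose and 3 fell, with list means of 6.75 to 6.82 and 6.13 to 6.42. Their median change was -0.52 on the deposited values, beside -0.37 over all probe sets, and -0.18 after quantile normalization. Of 10 macrophage markers 2 rose and 1 fell, and of 8 fibroblast and progenitor markers 1 rose and 0 fell. The part of these cell types in the changes of the 10 genes was not tested.

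Markers of skeletal muscle were high on 2 arrays. The mean of 10 muscle markers was 6.87 to 6.92 on the WT-labelled arrays, 8.61 on KO 1, 10.18 on KO 2 and 6.78 on KO 3. The calcium pump gene Atp2a1 read 11.20 on KO 1, 13.39 on KO 2 and 7.12 on KO 3, against 7.08 to 7.36 on WT-labelled arrays, and 0 of the 10 markers passed limma's test, with 0 at an unadjusted p under 0.05. On KO 3 the mean of the muscle markers was no higher than on the WT-labelled arrays, although Mylpf read 6.26 against 6.08 to 6.14. On KO 3 the 10 genes of the pathway stood over the WT mean by 0.34 in Mccc1 to 2.08 in Hibadh. How many of all probe sets stood above the WT-labelled values on this array alone was not counted. A fit of KO 3 alone against the 3 WT-labelled arrays was chosen after the values were seen. The lone array gives no spread of its group, so its differences are read as sizes only. The part of muscle RNA in the changes of the 10 genes was not tested.

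**Figure D4:**
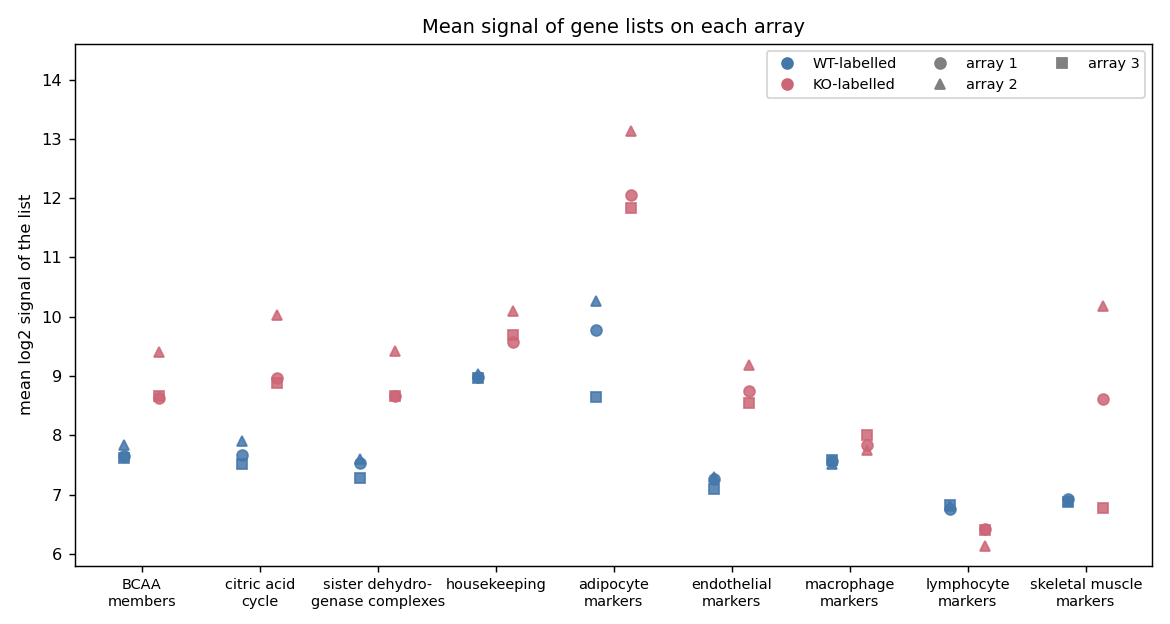
Mean log2 signal (vertical axis) of the 10 genes and of 8 comparison lists on each array, WT-labelled in blue and KO-labelled in red, with the marker shape giving the replicate number. The 10 genes, the related enzymes, the housekeeping genes and the adipocyte markers are higher on all 3 KO-labelled arrays, whereas the muscle markers are high on KO 1 and KO 2 (8.61 and 10.18) but not on KO 3 (6.78).

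Signals of the WT group were low for several of the genes. The 1082 olfactory receptor genes, best known from the olfactory epithelium, reached a median signal of 7.47 in the WT group, and Mccc1 (6.80), Dbt (7.04), Hibch (7.33) and Acadsb (7.42) stood below it. Outside the 10 genes, Bckdk (6.02), Pcca (6.95) and Ppm1k (7.01), among others, also stood below this median in the WT group. Bckdhb, the gene with the highest WT-labelled signal of the 10, stood above 87.3% of the olfactory receptor genes there, and Mccc1 above 26.5%. On the KO-labelled arrays the same shares were 98.9% and 67.6%, while the median of the olfactory receptor genes itself was lower there, at 6.87, 6.32 and 6.82 against 7.39 to 7.60 on the WT-labelled arrays. Probe sets differ in their background, so such a comparison gives no detection call, and the fold changes of the dimmer genes are uncertain.

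Whether the genes were called depended on the arrays used. When WT 1, WT 2, WT 3 or KO 3 was left out, limma made 0 calls among the 10 genes and 0 among all probe sets. At an unadjusted p under 0.05, 9 of the 10 genes were higher in each case. So were 4761, 4941, 4683 and 5710 of the 65956 probe sets. Counted in both directions, 23757, 25102, 21579 and 28697 probe sets had an unadjusted p under 0.05. The smallest adjusted p among the 10 genes was then 0.0997, 0.0824, 0.114 and 0.0624. The differences themselves kept their sign whichever array was left out, between 1.92 and 2.65 for Hibadh and between 1.39 and 2.08 for Bckdha.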

How the data were processed

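Per the labels, total RNA of inguinal fat was extracted with a NucleoSpin column, biotinylated with a WT Pico kit and read on 6 GeneChip arrays. The deposited table holds a log2 signal for each probe set and array, made by the authors in Transcriptome Analysis Console per the submitters' processing notes. The steps of background correction, normalization and probe set summary, and the build, were not given in the sources used here. Detection calls, scanner files and dates were not used here, and no batch was examined. The replicates are separate mice per the labels.

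Probe sets were named through GEO's annotation of the array, with old symbols updated through RefSeq (GRCm38.p6). Of 65956 probe sets 31258 had 1 symbol, 1492 several and 33206 none. For genes with several probe sets the one with the highest average signal was taken. The values were compared as deposited by limma 3.58.1 in R 4.3.3 (lmFit, eBayes without trend, genotype as the only term), with Benjamini-Hochberg adjustment over all probe sets and a call at an adjusted p under 0.05. Pairs of genes were compared by exact 2-sided permutation tests (scipy 1.17.1) of within-array differences, adjusted over 6 pairs. The 10 genes, the 19 lists and the tests were chosen with earlier results of these data known. Genes that could be named were the 10 genes, Tfg, the genes of the pathway, and of each other list those with the 4 smallest p, of which not all are named. Gcdh, Dhtkd1, Hlcs, Slc25a44 and Adipoq were chosen after their values were seen. Some genes of the lists, among them Etfb, Flad1, Esrra and Srebf1, were not analysed here.

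In a simulation 200 of 65956 probe sets were altered, 50 at each log2 size. The fit found 7 of those altered by -1, 9 by 1, 35 by 2 and 42 by 3. It also called 3 unaltered probe sets. On the deposited arrays the fit called 13791 probe sets. The Benjamini-Hochberg cut-off depends on the share of changed probe sets, so the simulated recovery does not carry over to the deposited arrays. Same-numbered arrays of the groups deviated together with correlations of 0.0015, 0.205 and 0.139. Differently numbered arrays gave between -0.216 and 0.171, so these values cannot tell whether the numbers pair the mice. Alternatives covered quantile normalization, centring on array medians or on 12 housekeeping genes, leaving out dim probe sets, eBayes with trend or trend and robust, array weights, a replicate block, other probe set choices, another threshold and leaving out each array. Python 3.11.15, pandas 2.3.3, numpy 2.4.6 and matplotlib 3.10.9 prepared tables and plots. Precision is limited by the 3 arrays per group.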

Additional observations from a re-analysis of the deposited data

How the results depend on the processing

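The main changes of calls under the alternatives are given here, and the cause was not tested unless stated. Centring on the housekeeping mean turned Bcat2 (-0.19), Mccc1 (-0.41) and Tfg (-0.66, adjusted p = 0.0264) negative and ended the calls of Bckdhb (0.50), Dbt (0.40), Ivd (0.20), Mccc2 (0.13), Hibch (0.44) and Acadsb (0.39). It left 2 of the 10 genes, 3 genes of further steps, 0 propionyl-CoA genes and 0 transport genes called higher, 11 other pathway genes called lower, and 1398 probe sets higher and 56138 lower. Quantile normalization ended the call of Ivd (1.21) and eBayes with trend did too (1.0). Array weights added Mccc1 (0.33), and so did a threshold of 0.1 (0.39). Other pathway genes called lower went from 1 to 0 after quantile normalization, median centring or the replicate block, and to 3 at a threshold of 0.1. Propionyl-CoA genes called higher went from 2 to 4 after median centring and to 5 at a threshold of 0.1. That threshold gave 5902 probe sets higher and 24774 lower, against 3509 and 10282. Probe sets called lower numbered 2212 after quantile normalization, 3259 after median centring and 17432 with array weights. When only the 31258 with 1 symbol were tested, 6773 were called lower and 3647 higher.

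With the replicate number as a block, Bcat2 kept its difference of 0.61 and lost its call (adjusted p = 0.0501), and the other 8 called genes kept theirs. Whether the numbers pair the mice cannot be told from the correlations of 0.0015, 0.205 and 0.139. KO 3 alone against WT, added after the data were seen, gave 0 calls, with 0.45 for Bcat2, 1.27 for Bckdha, 1.18 for Bckdhb, 0.89 for Dbt, 0.70 for Ivd, 0.82 for Mccc2, 2.08 for Hibadh, 0.94 for Hibch and 0.92 for Acadsb.

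Leaving out 1 array at a time moved the differences between 0.51 and 0.68 for Bcat2, 1.39 and 2.08 for Bckdha, 1.06 and 1.48 for Bckdhb, 0.89 and 1.36 for Dbt, 0.72 and 1.16 for Ivd, 0.75 and 1.05 for Mccc2, 1.92 and 2.65 for Hibadh, 0.96 and 1.39 for Hibch, and 0.95 and 1.32 for Acadsb. Without KO 1 the call of Ivd was lost (adjusted p = 0.0537), and without KO 2 the cofactor list went from 2 to 0 called. Of the 10 genes 0 to 9 were called higher, of the further steps 0 to 6, of the propionyl-CoA, cofactor and transport lists 0 to 2 each, and 0 to 1 other pathway gene was called lower. Probe sets called ranged from 0 to 3469 higher and from 0 to 10697 lower.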
